A study of Homo sapiens with 96 samples.

Results

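The introns described here are the retained intron (RI) events whose retained form already made up most of the signal in DMSO-treated A549, a long-established human cell line derived from an adenocarcinoma of the lung. They were chosen from the splicing tables made with rMATS as the RI with at least 10 reads in each of the 3 DMSO libraries of 4 days and a mean Ψ (percent spliced in, written as a share from 0 to 1) of at least 0.5 in those libraries. The rule kept 1604 introns in 1102 genes, which was 38.3% of the 4192 RI with enough reads, out of 4805 RI listed in the 6 tables with 4-day DMSO and 4928 in all 8. Since the 4-day DMSO values chose them, those values are given as a description, and tests are given for contrasts that hold no 4-day DMSO library.

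Poly(A) RNA was sequenced from 30 libraries in 10 groups of 3. Control cells received 0.01% DMSO for 4 or 7 days. Treated cells received 1 µM GSK591, an inhibitor of the arginine methyltransferase PRMT5, or 1 µM MS023, an inhibitor of the Type I arginine methyltransferases, for 2, 4, or 7 days, or both at 1 µM each for 2 or 4 days. The labels of these libraries give no DMSO group of 2 days, and the 7-day control of the tables was taken to be the 7-day DMSO group, the only control of that age. All libraries come from 1 cell line, and nothing in the labels says that replicates were separate cultures, so p-values measure the spread between these libraries, which may be technical. The libraries of a group are called a, b, and c by their order in the tables.

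Most human introns are removed while the RNA is being made or soon after. Some stay in otherwise finished, polyadenylated transcripts, either because the transcript is held in the nucleus until the intron is removed (a detained intron) or because the retained form is itself a stable mRNA. PRMT5 places symmetric methyl marks on arginines of the Sm proteins at the core of the spliceosome, and Type I enzymes place asymmetric marks on many RNA-binding proteins. In rMATS an RI event compares reads inside a segment and across its borders with reads that join the flanking exons, so an RI with a high Ψ can be an intron that is seldom removed or an exonic stretch that is seldom removed as if it were an intron.

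The gene annotation separated these cases, and the label of a mostly retained intron held for a minority. Only 154 of the 1604 segments (9.6%) were introns of the canonical transcript of their gene, whereas 2409 of the 2588 RI below the threshold (93.1%) were. A further 357 (22.3%) lay inside a longer canonical intron, 648 (40.4%) were partly exonic, and 415 (25.9%) lay within a canonical exon. Partly exonic segments covered exonic and intronic bases together or reached past an end of the canonical transcript. The remaining 30 had no such place. Of the partly exonic segments 358 had an entire canonical exon inside them, so that the form counted as spliced skipped that exon. Of the segments within an exon, 36 were in the first exon, 211 in an internal exon, and 165 in the last exon, and 3 were in genes with a single exon. The median 4-day DMSO Ψ was 0.737 for canonical introns, 0.902 for segments inside a canonical intron, 0.967 for partly exonic segments, and 0.98 for segments within an exon. This split was chosen after the data were seen, and the classes are described separately from here on.

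**Figure D1:**
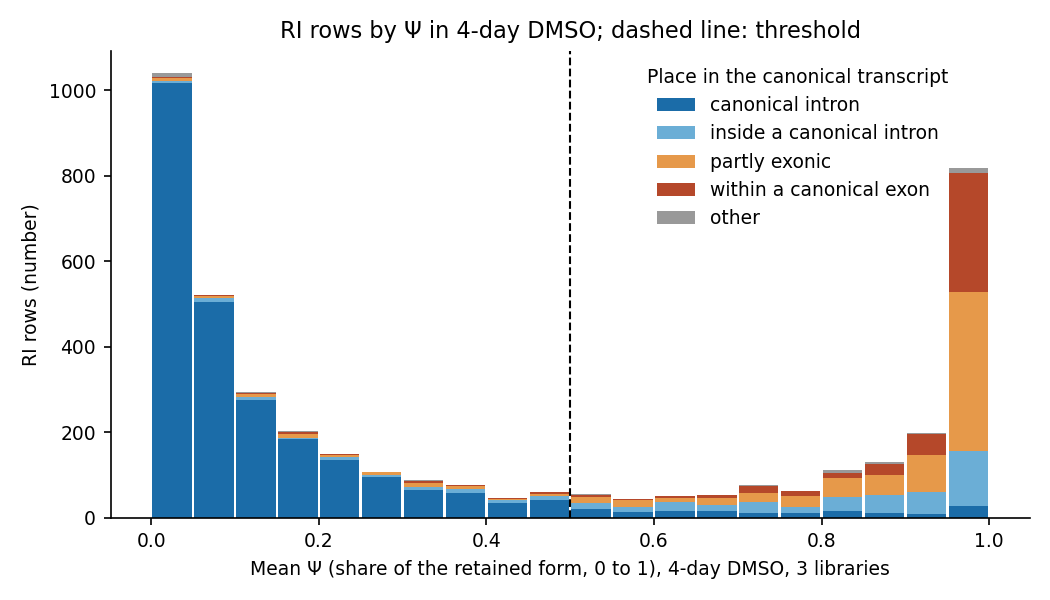
Number of RI (y axis) by mean Ψ in the 3 DMSO libraries of 4 days (x axis, bins of 0.05), for the 4192 RI with at least 10 reads in each library. Colours give the place of the segment in the canonical transcript, and the dashed line is the threshold of 0.5. The 2409 canonical introns below the threshold pile up near 0, and the 1604 RI above it pile up near 1, where partly exonic segments and segments within exons make up most of them.

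The splice sites of members that carry the results are shown here, read from GRCh37 at the hg19 coordinates of the tables. Each 5′ site gives 3 exon bases and 6 intron bases, each 3′ site gives 20 intron bases and 3 exon bases, and the capitals mark the first and last 2 bases of the intron. C9orf142 (chr9:139887153-139887376, plus strand, intron 2 of 6, in the coding region) and MICAL1 (chr6:109772904-109773448, minus strand, intron 6 of 24, in the coding region) stand for canonical introns. PHPT1 (chr9:139744590-139744957, plus strand) lies inside a canonical intron and INVS (chr9:103054719-103055228, plus strand) within exon 14 of 17. VAMP1 (chr12:6572009-6574055, minus strand) and PSMD11 (chr17:30806395-30807163, plus strand, with 1 canonical exon inside) are partly exonic. FTH1 (chr11:61734844-61734929, minus strand) lies in the first of 4 exons and had the most reads of all.
C9orf142, 5′ site: ctcGTgggt
C9orf142, 3′ site: caagcccctgtgctctctAGaaa
MICAL1, 5′ site: cagGTcagg
MICAL1, 3′ site: cccctgccctgtacccccAGgca
PHPT1, 5′ site: atgGTgagc
PHPT1, 3′ site: ttcacaaaaaccaccagcAGatg
INVS, 5′ site: gagGTgaga
INVS, 3′ site: tattgaccttctccccgtAGagc
VAMP1, 5′ site: taaGTaagt
VAMP1, 3′ site: ttcccttcgtcctgcccaAGggc
PSMD11, 5′ site: cagGTgaga
PSMD11, 3′ site: atcatgtgctttgattttAGgcc
FTH1, 5′ site: accGCcgcc
FTH1, 3′ site: actaccaccaggactcagAGgcc

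A log-odds score of each site against the base shares at 402532 annotated introns put these sequences on 1 scale, where a higher score is closer to the usual site. The 5′ site of C9orf142 scored 3.47 and that of MICAL1 8.26, while the FTH1 site, which starts with GC, scored -10.14. Over all 154 canonical introns the median 5′ score was 7.29 (quartiles 5.46 and 9.08), against 7.97 (5.89 and 9.66) for canonical introns below the threshold, so that the ranges largely overlapped. The 3′ scores had medians of 8.40 and 8.83. Segments within exons scored lower at both ends, with medians of 5.60 and 6.87. Introns are not replicates, and no test was made of these features.

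Canonical introns above the threshold were of like length to those below it, with medians of 229 and 222 bases. Their GC content had a median of 61.2% (quartiles 53.4% and 66.48%) against 57.8% (47.7% and 64.55%). Cytosine made up a mean of 44.2% of the polypyrimidine stretch before the 3′ site against 37.7%. Its quartiles were 32.81% and 56.25% against 25% and 50%, so that the ranges of both features largely overlapped. Those above the threshold were the last intron of the transcript in 13.0% of cases against 7.9%. A canonical intron above the threshold overlapped an exon of another gene on the same strand in 9.7% of cases against 2.0%, and on the opposite strand in 11.7% against 5.1%. Reads of such a neighbour on the same strand cannot be told apart from the intron, and the part of the overlaps in the high Ψ was not tested.

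Among all 1604 members 76.1% were annotated as an intron of some transcript, against 99.7% of RI below the threshold. A coding transcript held the retained form in 35.6% of members against 10.9% below the threshold, and in 94.5% of the segments within exons. Members were often variants of 1 another, since 292 genes had 2 or more of them (794 in all) and 552 members overlapped another member on the same strand and so share reads. GALT, the enzyme that converts galactose-1-phosphate, had 10 members, 8 of them partly exonic, and ATXN2L, a relative of ataxin-2, had 8, of which 7 lay within a canonical exon. A small RNA gene lay inside 18 members, and 13 members were shorter than 50 bases.

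Junction reads limited the precision of Ψ for these introns. The members took 776615 to 1317478 reads per library out of 3148825 to 5224249 on all RI, but only 17278 to 27611 of these joined the flanking exons. The median member had 173 reads per 4-day DMSO library and 2.33 junction reads, against 205 junction reads for RI below the threshold. In 321 members no junction read was counted in any 4-day DMSO library, and in 535 fewer than 3 were counted over all 3 libraries. Of 6 genes that mark the epithelial origin of A549, KRT8, KRT18, and KRT7 were well covered in the same tables (KRT8 37176 to 84446 reads per library), CDH1 (107 to 430) and EPCAM (5 to 184) had few reads, and KRT19 had 0. Of the markers of blood cells, PTPRC, CD3D, and HBB had 0 and CD3E and CD79A at most 28. These counts cover only listed splicing events. A gene with no listed event has 0 whatever its expression, so values of 0 do not show that a gene was silent.

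The Ψ values of the members were spread toward 1. The 4-day DMSO mean was between 0.5 and 0.6 for 99 members, between 0.6 and 0.7 for 106, between 0.7 and 0.8 for 140, between 0.8 and 0.9 for 243, between 0.9 and 0.99 for 537, and at 0.99 or more for 479. Libraries differed by a median SD of 0.025 (n = 3), and 97 members were under 0.5 in at least 1 of the 3 libraries. Just inside the threshold were IFT80 (intraflagellar transport) at a mean of 0.503, IMP4 (ribosome biogenesis) at 0.504, and TNRC6A (microRNA silencing) at 0.508. Just outside it were SSPO at 0.499, ABL2 at 0.498, and NSUN5P1 at 0.497.

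Of the 5 members with the most reads 4 were segments within exons of abundant mRNAs. The FTH1 segment, in the mRNA of the ferritin heavy chain, was at 0.968, 0.964, and 0.969 in the 4-day DMSO libraries and at 0.959, 0.959, and 0.955 in those of 7 days, with 9434 junction reads over the latter. The ACTB segment (chr7:5567243-5567363, minus strand), in the 3′ UTR of beta-actin, stayed at 0.999 or above in every library and had 9 junction reads over the 4-day DMSO libraries. RPL13 and RPL8, of the large ribosomal subunit, had means of 0.991 and 0.938, and RPS16, of the small one, 0.704. The members with the highest Ψ and at least 50 reads included LMNA, NCLN, FKBP1A, WDR6, and RPL10, all at 1 with 0 junction reads in 4-day DMSO, and 235 members shared that value. At the threshold values chosen here such rows say only that no splice junction was seen.

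The 7-day DMSO libraries, which the rule did not use, held most of these introns at a like level. Of the 1604 members 1375 had at least 10 reads in each 7-day DMSO library, and 1325 of them (96.4%) were again at or above 0.5. The median difference between 7-day and 4-day DMSO was -0.00058 (-0.00161 to -0.000959 without 1 of the 4-day libraries a, b, and c), the mean was -0.00879, 187 members were higher by more than 0.05, and 261 were lower by more than 0.05. The median differences of members between 0.5 and 0.6 and between 0.6 and 0.7 at 4 days were +0.00277 and +0.0147. Of 92 members between 0.5 and 0.6 at 4 days 33 were below 0.5 at 7 days, as were 11 of 98 between 0.6 and 0.7 and 6 of 133 between 0.7 and 0.8, while 0 of 231 between 0.8 and 0.9 and 0 of 821 above 0.9 were. Conversely, 47 of 2543 RI below the threshold reached 0.5 at 7 days. No test was made, since 4-day DMSO chose the members.

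By class, 129 of 146 canonical introns, 292 of 306 segments inside a canonical intron, 511 of 525 partly exonic segments, and 372 of 376 segments within exons were at or above 0.5 in 7-day DMSO. The 7-day tables did not list 178 members, and 137 of these had 0 junction reads in 4-day DMSO. The tables list no RI that lacks a junction read in both groups. Comparisons at 7 days therefore leave out members that stayed at 1 throughout.

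**Figure D2:**
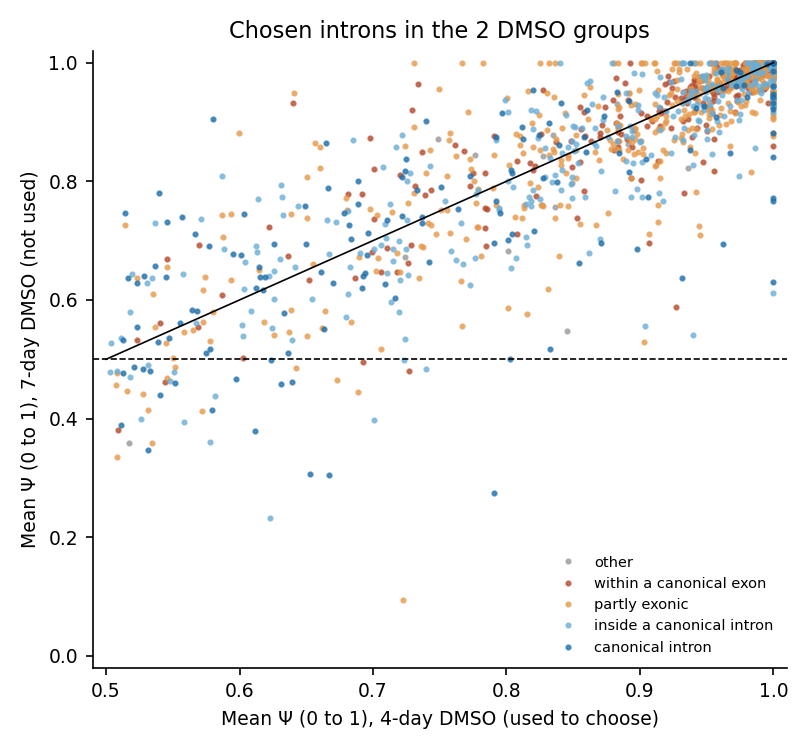
Mean Ψ in 7-day DMSO (y axis) against mean Ψ in 4-day DMSO (x axis), 3 libraries each, for the 1375 members with at least 10 reads in each 7-day library. The solid line marks equal values and the dashed line the threshold, under which 50 members lie, 33 of them between 0.5 and 0.6 at 4 days.

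At 7 days, the canonical introns among the members that passed the test against DMSO were mostly higher in GSK591, at about the share of all canonical introns, and members of the other classes passed in both directions. In the comparison with 7-day DMSO 39 of 134 canonical introns tested passed an adjusted p of 0.05, with 37 higher and 2 lower. The median difference over the 134 was +0.0684. All canonical introns tested, whatever their level, passed in 34.7% of cases (28.6% higher and 6.02% lower), and the members in 29.1% (27.6% and 1.49%). Among segments inside a canonical intron 28 rose and 11 fell of 285, among partly exonic segments 20 rose and 26 fell of 484, and among segments within exons 39 rose and 22 fell of 348. Over all 1271 members tested 190 passed (126 higher and 64 lower), or 14.9%, against 27.9% of all RI tested (21.8% higher and 6.1% lower). In bulk RNA a change within every cell and a change in the share of cells that carry the retained form cannot be told apart.

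Calls were fewer among introns closer to 1. Of 183 members between 0.5 and 0.7 in 4-day DMSO 59 passed (32.2%), of 347 between 0.7 and 0.9 76 passed (21.9%), of 474 between 0.9 and 0.99 55 passed (11.6%), and of 267 at 0.99 or more none did. Canonical introns showed the same order, with 25 of 61, 13 of 47, 1 of 13, and 0 of 13. All 25 of the lowest band were higher in GSK591. A Ψ near 1 leaves little room for a rise and few junction reads to show a fall, and the part of this limit in the counts was not tested.

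The members called in MS023 at 7 days were mostly lower, with 17.4% of their calls higher, against 16.9% for all RI. Of 1288 members tested 86 passed (6.68%, against 11.4% of all RI), with 15 higher and 71 lower. All RI were called higher in 1.93% and lower in 9.49% of cases. Canonical introns accounted for 19 of the 86 (3 higher and 16 lower of 134). That was 14.2%, against 14.1% of all canonical introns (2.19% higher and 11.9% lower). Segments within exons accounted for 27 of the 86, out of 365 tested (7.4%), and 25 of the 27 were lower. These calls were less firm than those of GSK591, since limma on the log2 odds called 0 of the 1288 (named members included), although 241 had an unadjusted p under 0.05, and the count was 56 when MS023 library b was left out. The GSK591 and MS023 comparisons share the 7-day DMSO libraries, so each is given on its own.

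**Figure D3:**
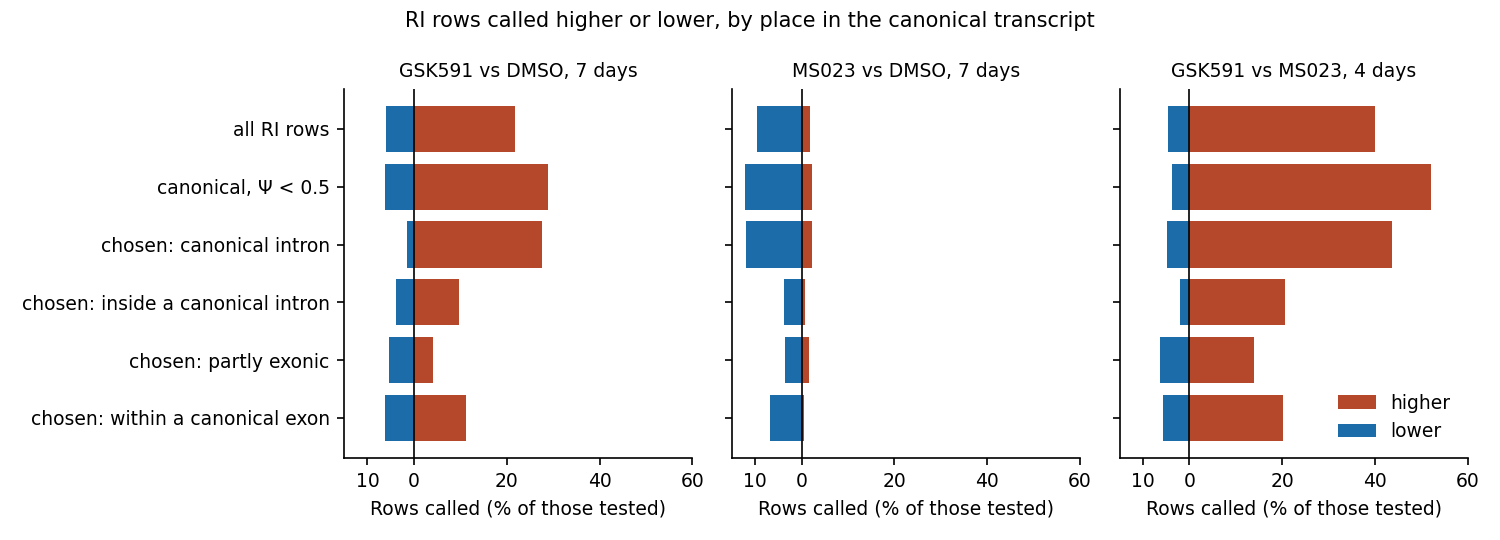
Share of RI called higher (right of 0) or lower (left of 0), in percent of those tested (x axis), for all RI, for canonical introns below the threshold, and for the members in 4 classes (y axis). The panels compare GSK591 with DMSO and MS023 with DMSO at 7 days, and GSK591 with MS023 at 4 days. Canonical introns above and below the threshold have 27.6% and 28.8% higher and 1.49% and 6.32% lower in the first panel, and 43.7% and 52.1% higher in the third. Partly exonic segments have the most balanced bars in the first panel, with 4.13% higher and 5.37% lower.

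The median Ψ over introns in each library showed the same contrast in the levels. Over the 112 canonical introns with enough reads in all 30 libraries this median was 0.683, 0.699, and 0.720 in 7-day DMSO, 0.825, 0.824, and 0.839 in GSK591, and 0.672, 0.668, and 0.654 in MS023. The GSK591 libraries lay above every DMSO library and the MS023 libraries below every one, although the nearest DMSO and MS023 libraries were 0.683 and 0.672. The 251 segments inside a canonical intron had means of 0.862 ± 0.00758 (SD, n = 3) in DMSO, 0.923 ± 0.00719 in GSK591, and 0.845 ± 0.00946 in MS023. Segments within exons kept the order at a far smaller scale, with 0.973 ± 0.00227, 0.983 ± 0.00288, and 0.967 ± 0.00233. Partly exonic segments did not, since DMSO was at 0.921 ± 0.00992 and GSK591 at 0.920 ± 0.00524.

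**Figure D4:**
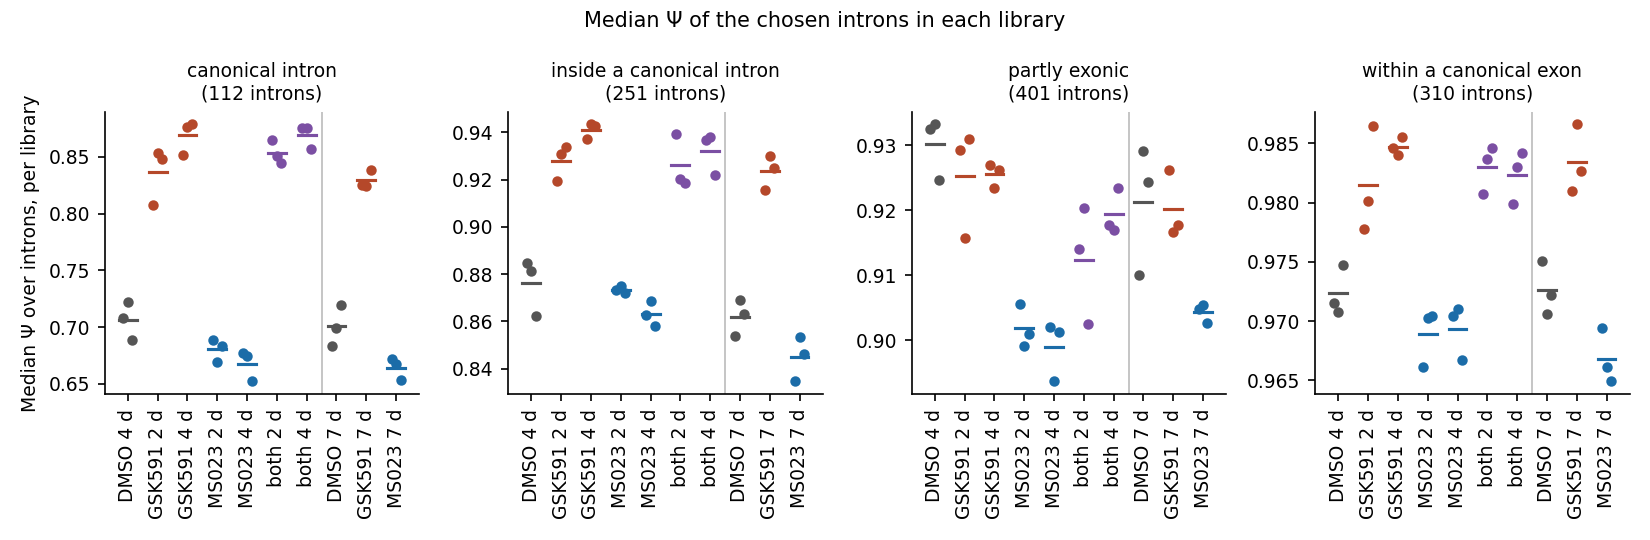
Median Ψ over introns in each library (points, 3 per group) and the mean of the 3 libraries (bars) for members with at least 10 reads in all 30 libraries, in 4 classes. Each panel has its own y axis, which does not start at 0, and the grey line separates the 7-day groups. Canonical introns have means of 0.706 and 0.701 in DMSO, 0.829 to 0.869 in GSK591 and co-treatment, and 0.664 to 0.681 in MS023.

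The direct comparison of the inhibitors holds no DMSO library. GSK591 was above MS023 in 171 members and below it in 38 of 1269 tested at 2 days (16.5% called, against 34.2% of all RI), in 259 and 64 of 1291 at 4 days (25%, against 44.8%), and in 243 and 75 of 1212 at 7 days (26.2%, against 39.4%). For canonical introns 34 of 120 passed at 2 days (28.3%, against 43.2% of all canonical introns), 61 of 126 at 4 days (48.4%, against 55.3%), and 58 of 128 at 7 days (45.3%, against 46.2%). Of these 32, 55, and 50 were higher in GSK591. Among all RI the shares higher and lower in GSK591 were 30.7% and 3.5% at 2 days, 40.1% and 4.62% at 4 days, and 32.5% and 6.9% at 7 days. Among all canonical introns they were 39.8% and 3.32%, 51.5% and 3.81%, and 39.6% and 6.59%. The median difference over canonical members was +0.0804, +0.125, and +0.0935.

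Across the 3 days 1106 members were tested each time, and 115 were called higher in GSK591 and 24 lower on all of them. Of all 3574 RI tested on the 3 days 24.3% were higher each time and 2.04% lower. The canonical introns in this count were 28 higher and 1 lower of 114 (against 31% and 1.74% of all canonical introns), the segments within exons 40 higher and 12 lower of 314. The change of the difference between 2 and 4 days passed the test in 6 of 1229 members, 3 higher and 3 lower (0.488%, against 0.909% of all RI, 0.802% higher and 0.107% lower), and limma called 0 of them, with 112 at an unadjusted p under 0.05.

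Among canonical introns, C9orf142 gave the clearest opposite changes. The gene, also named PAXX, encodes a factor of DNA end joining. Its intron 2 was at 0.659, 0.665, and 0.596 in 7-day DMSO, at 0.877, 0.861, and 0.880 in GSK591, and at 0.401, 0.433, and 0.389 in MS023. No library of 1 group overlapped another group. The difference from DMSO was +0.232 in GSK591 (adjusted p = 5.1e-07) and -0.233 in MS023 (adjusted p = 2.33e-07), and GSK591 exceeded MS023 by 0.352, 0.414, and 0.465 at 2, 4, and 7 days. Junction reads over the 3 libraries numbered 317, 89, and 603 in DMSO, GSK591, and MS023 of 7 days. This intron overlaps another member of the same gene.

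MICAL1, an enzyme that oxidises actin, behaved alike. Its intron 6 was at 0.623, 0.689, and 0.605 in 7-day DMSO, at 0.865, 0.904, and 0.842 in GSK591 (adjusted p = 0.00394), and at 0.434, 0.394, and 0.430 in MS023 (adjusted p = 0.022). The groups did not overlap. The 2-day MS023 libraries were uneven, at 0.348, 0.385, and 0.668, all under the 2-day GSK591 range of 0.874 to 0.918.

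In ECHDC2, a mitochondrial protein with an enoyl-CoA hydratase domain, the MS023 change was the clear one at 7 days. Intron 5 of 9 (chr1:53370763-53372190, minus strand) was at 0.490, 0.470, and 0.574 in DMSO, at 0.547, 0.662, and 0.518 in GSK591, and at 0.196, 0.206, and 0.244 in MS023. MS023 lay below DMSO by 0.296 in absolute size (adjusted p = 1.91e-06), while the GSK591 difference of +0.0642 did not pass (adjusted p = 0.559). At 2 days GSK591 was at 0.775, 0.823, and 1, whereas co-treatment was at 0.398, 0.442, and 0.451. Co-treatment was called below GSK591 at 2 days (adjusted p = 0.019) and at 4 days (adjusted p = 3.24e-04). The 2-day call was lost with limma, which called 0 of the 22 members called in that comparison.

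A member of 71 bases rose in GSK591 and fell in MS023. Intron 7 of 12 of CDK10, a cyclin-dependent kinase (chr16:89759735-89759805, plus strand), was at 0.676, 0.664, and 0.744 in 7-day DMSO, 0.905, 0.894, and 0.921 in GSK591, and 0.512, 0.582, and 0.530 in MS023. Both differences passed, at +0.212 (adjusted p = 8.45e-05) and -0.153 (adjusted p = 0.00424). A longer member from the same 5′ site, which has a canonical exon inside, was lower in both inhibitors, by -0.0709 and -0.0864.

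ADAMTS10, a secreted metalloprotease, had an intron of 87 bases (chr19:8661104-8661190, minus strand) that differed between the DMSO groups themselves. It was at 0.552, 0.545, and 0.540 at 4 days and at 0.744, 0.751, and 0.701 at 7 days. GSK591 at 7 days was at 0.947, 0.966, and 0.983 (adjusted p = 4.73e-07) and MS023 at 0.620, 0.615, and 0.620 (adjusted p = 0.038). All 3 groups of 7 days were apart.

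The last of 12 introns of NAPRT1, which acts in NAD synthesis (chr8:144657071-144657155, minus strand, overlapping another member), had uneven controls. Its 7-day DMSO libraries were at 0.642, 0.302, and 0.455, all under GSK591 at 0.879, 0.781, and 0.840 (difference +0.367, adjusted p = 1.32e-04). MS023, at 0.414, 0.383, and 0.403, lay within the DMSO range. Among called canonical introns with at least 50 reads in every library, ALS2CL had the largest fall in MS023 (chr3:46716230-46717107, minus strand). It went from 0.859, 0.550, and 0.808 in DMSO to 0.438, 0.465, and 0.298 (adjusted p = 0.0183), but this call was lost without DMSO library a (adjusted p = 0.104) or c (0.105) or without MS023 library c (0.0933). It was also lost with limma (adjusted p = 0.175).

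Several of the largest differences came from segments inside a canonical intron, each of which is annotated as an intron of another transcript. PHPT1, a phosphohistidine phosphatase, was at 0.680, 0.605, and 0.653 in 7-day DMSO, at 0.881, 0.958, and 0.976 in GSK591 (adjusted p = 1.16e-04), and at 0.501, 0.444, and 0.418 in MS023 (adjusted p = 0.00111). DMKN, encoding the secreted epidermal protein dermokine (chr19:36001155-36001280, minus strand), was at 0.656, 0.703, and 0.699, then 0.963, 0.945, and 0.926 (adjusted p = 3.73e-08), and 0.509, 0.497, and 0.537 (adjusted p = 5.9e-04). In both genes the 3 groups were apart.

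PFDN5, a subunit of the prefoldin chaperone, had a segment of 1382 bases that an exon of another gene overlaps on the same strand. Its values were 0.774, 0.724, and 0.902 in DMSO, 1, 1, and 0.960 in GSK591 with 1 junction read in all (adjusted p = 0.0241), and 0.517, 0.473, and 0.602 in MS023 (adjusted p = 0.00389). IFT80 rose in GSK591 from 0.528, 0.462, and 0.443 to 0.918, 0.950, and 0.788 (adjusted p = 7.49e-04). Its MS023 values of 0.738, 0.785, and 0.517 did not pass against DMSO (adjusted p = 0.186). COX7C and ZNF789 were called higher in GSK591 than in MS023 on all 3 days. The COX7C call of 4 days was lost without library b or c of either group, and the ZNF789 calls of 2 and 7 days were lost when certain single libraries were left out (MS023 library c on either day, GSK591 library b at 2 days, and GSK591 library c at 7 days). The ZNF789 call of 7 days was also lost with limma (adjusted p = 0.0712).

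Within exons, INVS passed the test against DMSO in MS023 and not in GSK591. INVS encodes inversin, a protein of the primary cilium, and its segment of 510 bases lies in the coding region. It was at 0.651, 0.724, and 0.645 in 7-day DMSO, at 0.603, 0.650, and 0.686 in GSK591, and at 0.366, 0.323, and 0.275 in MS023. The MS023 difference was -0.352 (adjusted p = 4.15e-06), and the GSK591 difference of -0.0271 did not pass (adjusted p = 0.81). GSK591 exceeded MS023 by 0.265, 0.382, and 0.325 on the 3 days, and each difference passed (adjusted p = 1.93e-04, 1.09e-08, and 2.59e-07).

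RELL2, a relative of the TNF receptor family protein RELT, had a segment in its first exon (chr5:141017309-141017736, plus strand) that rose in GSK591. It was at 0.776, 0.615, and 0.617 in DMSO and 0.783, 0.969, and 1 in GSK591 (adjusted p = 0.0254), so the ranges nearly met. MS023, at 0.538, 0.433, and 0.420, did not pass against DMSO (adjusted p = 0.0636). In ATXN2L 4 of 8 members passed in GSK591 and 2 in MS023, and since they overlap these are not separate changes. In GALT none of the 7 members tested passed at 7 days.

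The named members with the largest falls in GSK591 were partly exonic. The segment of VAMP1, a vesicle SNARE protein, was at 0.841, 0.854, and 0.869 in 7-day DMSO, at 0.503, 0.532, and 0.403 in GSK591, and at 0.885, 0.911, and 0.828 in MS023. GSK591 differed from DMSO by -0.376 (adjusted p = 2.4e-06) and MS023 did not pass (adjusted p = 0.839). Junction reads rose from 35 to 114, while MS023 had 23.

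PSMD11, a subunit of the proteasome lid, moved in opposite directions in the inhibitors. Its segment holds a canonical exon, so the spliced form skips that exon. The values were 0.532, 0.460, and 0.697 in 7-day DMSO, 0.0489, 0.0687, and 0.0533 in GSK591 (adjusted p = 1.53e-08), and 1 in each MS023 library (adjusted p = 0.0125). Behind these stood 19, 313, and 0 junction reads. Co-treatment took a place between the single agents, with 0.405, 0.379, and 0.312 at 2 days against 0.130, 0.190, and 0.167 in GSK591 (adjusted p = 0.0108) and 0.814, 0.638, and 0.682 in MS023 (adjusted p = 0.00197). The call of co-treatment against GSK591 was lost with limma.

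COPS6, a subunit of the COP9 signalosome, also has a canonical exon inside its segment (chr7:99688278-99688660, plus strand) and fell from 0.528, 0.439, and 0.673 to 0.192, 0.211, and 0.214 in GSK591 (adjusted p = 1.31e-04). Co-treatment was lower still than GSK591 at 2 days, at 0.186, 0.117, and 0.139 against 0.280, 0.401, and 0.275 (adjusted p = 0.0138), a call that was lost with limma. In MS023 the members with large falls included MPPE1, a metallophosphoesterase, at 0.777, 0.796, and 1 in DMSO and 0.540, 0.332, and 0.303 in MS023 (adjusted p = 0.00267). SCLY, the selenocysteine lyase, differed between the inhibitors at 7 days, at 0.503, 0.641, and 0.375 in GSK591 against 1 in each MS023 library with 0 junction reads (adjusted p = 0.00706).

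**Figure D5:**
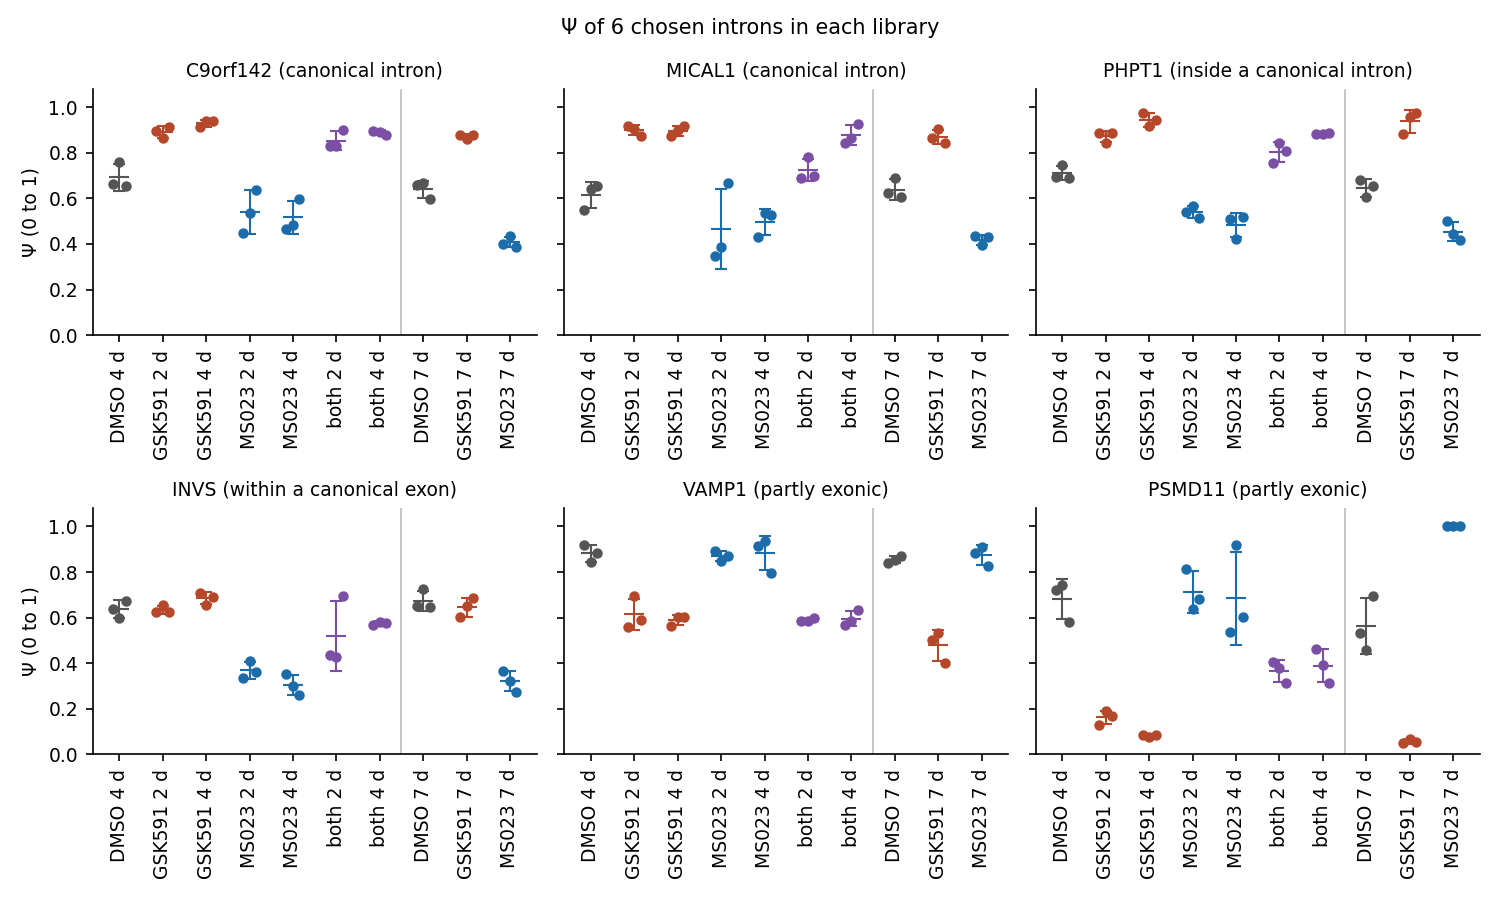
Ψ in each library (points), with the mean and SD of 3 libraries (lines and error bars), for 6 members over the 10 groups (x axis), with the 7-day groups to the right of the grey line. C9orf142, MICAL1, and PHPT1 lie higher in GSK591 than in MS023, INVS is low in the MS023 groups, and VAMP1 and PSMD11 are low in GSK591, with PSMD11 at 1 in the 7-day MS023 libraries.

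Of the genes the study followed, GAS5, ANKZF1, and HNRNPH1 had members, each a partly exonic segment and not a canonical intron. In GAS5, a noncoding RNA that hosts small nucleolar RNAs, the segment chr1:173833443-173833812 (minus strand, 1 canonical exon inside) fell from 0.925, 0.914, and 0.953 in 7-day DMSO to 0.708, 0.730, and 0.684 in GSK591 (adjusted p = 1.2e-06). MS023, at 0.914, 0.905, and 0.798, did not pass (adjusted p = 0.167). The spliced form of this segment skips the exon inside it. Its Ψ is therefore not the measure of the single GAS5 intron whose retention the study reported to rise in GSK591. At 4 days co-treatment was at 0.568, 0.553, and 0.569, below GSK591 at 0.793, 0.804, and 0.822 (adjusted p = 8.75e-09). The longer GAS5 member kept a mean of 0.956 or more in every group.

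HNRNPH1, a splicing regulator, rose from a range of 0.943 to 0.960 in 7-day DMSO to 0.985 to 0.997 in GSK591 (adjusted p = 0.00427). It also exceeded MS023 by 0.0437 at 2 days (adjusted p = 0.00529) and by 0.0402 at 4 days (adjusted p = 6.47e-05). Both calls held without any single library and with limma (adjusted p = 0.0268 and 0.00334). At 7 days it exceeded MS023 by 0.0413 (adjusted p = 0.00318), a call lost without MS023 library b or c and with limma (adjusted p = 0.158). The 2 members of ANKZF1, which acts in ribosome quality control, passed in none of the 7-day or direct comparisons that could be made. NOP2, CHTOP, and SNRPB had no member.

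Fewer members were called between co-treatment and GSK591 than between co-treatment and MS023. Against GSK591 22 of 1271 members passed at 2 days (1.73%, against 3.45% of all RI), 4 higher and 18 lower, and 56 of 1304 at 4 days (4.29%, against 8.92%), 17 higher and 39 lower. All RI were 1.87% higher and 1.58% lower at 2 days and 3.72% higher and 5.2% lower at 4 days. Partly exonic segments made up 17 of the 22 and 30 of the 56, with 491 tested on each day. That was 3.46% at 2 days (0.611% higher and 2.85% lower) and 6.11% at 4 days (1.83% higher and 4.28% lower). Canonical introns gave 2 of 122 at 2 days and 4 of 132 at 4 days, against 4.09% (2.63% higher and 1.46% lower) and 10.8% (4.67% and 6.16%) of all canonical introns. Limma on the log2 odds called 0 of the 22 and 2 of the 56, and 1 and 5 of all members tested. The 2-day count was sensitive to single libraries. It fell to 5 without co-treatment library b, to 11 without co-treatment library a or c, and to 14 without GSK591 library b. It rose to 27 without GSK591 library a and to 23 without GSK591 library c. The 4-day count fell to 35 without co-treatment library a.

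Against MS023 247 of 1279 members passed at 2 days (19.3%, against 39.1% of all RI), 180 higher and 67 lower, and 326 of 1289 at 4 days (25.3%, against 44%), 246 higher and 80 lower. All RI were 35.1% higher and 4.04% lower at 2 days and 39.1% higher and 4.97% lower at 4 days. Canonical introns were higher in co-treatment in 44 and lower in 3 of 122 at 2 days and in 58 and 4 of 129 at 4 days. All canonical introns were called in 49.7% of cases at 2 days (46.7% higher and 3.01% lower) and in 54.1% at 4 days (50.5% higher and 3.65% lower). Partly exonic segments were split, with 40 higher and 41 lower of 497 at 2 days. These comparisons share their GSK591 or MS023 libraries with the direct one above.

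Against 4-day DMSO, which chose the members, the 2-day and 4-day groups are described without a test. The median difference of canonical introns was +0.0592 in GSK591 and -0.0244 in MS023 at 2 days, and +0.0816 and -0.0355 at 4 days. Co-treatment was at +0.0946 and +0.0795. Set against 7-day DMSO, which did not choose the members but differs in age, the values were +0.0592 and -0.0227 at 2 days and +0.0930 and -0.0313 at 4 days. Introns chosen by the same rule on 7-day DMSO and read against 4-day DMSO, an addition made after the data were seen, gave +0.0795 and -0.0146 at 2 days and +0.109 and -0.0185 at 4 days. Over all members these medians were small, between -0.00718 and +0.00691 against 4-day DMSO. By group, the medians against 4-day DMSO cover 1343 to 1391 of the 1604 members and 129 to 138 of the 154 canonical introns. The rest were not listed for that group or had too few reads. A member with 0 junction reads in 4-day DMSO is listed only if the inhibitor libraries have a junction read, so it can show only a fall. The median of GSK591 over all members was 0.00456 at 2 days, and 0.00261, 0.00311, and 0.00346 without 4-day DMSO library a, b, or c. At 4 days it was 0.00691, and 0.00441, 0.00418, and 0.00476 without them.

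Lists of genes of RNA processing and related pathways held members in part. Their counts are small and are to be read against all RI, of which GSK591 raised 21.8% and lowered 6.1% at 7 days, and MS023 raised 1.93% and lowered 9.49%. Among regulators of the hnRNP kind 23 of 53 RI were members, and GSK591 at 7 days raised 3 and lowered 1 of 20 tested. EWSR1, an RNA-binding protein of the FET family, moved in both comparisons (chr22:29695271-29695588, plus strand). It was at 0.840, 0.887, and 0.850 in 7-day DMSO, at 0.984, 0.954, and 0.972 in GSK591 (adjusted p = 7.72e-04), and at 0.741, 0.739, and 0.760 in MS023 (adjusted p = 0.00269). CIRBP, the cold-inducible RNA-binding protein, had 2 segments in its last exon that moved in opposite directions in GSK591. The longer, which had gone from a mean of 0.727 in 4-day DMSO to 0.481 in 7-day DMSO, was higher by 0.143 (adjusted p = 0.00345), and the shorter, in the 3′ UTR, fell from 0.398, 0.465, and 0.522 to 0.228, 0.263, and 0.280 (adjusted p = 2.66e-04).

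Among snRNP and spliceosome components 9 of 27 RI were members and 2 of 7 tested rose in GSK591, namely SF1, the branch point binding protein (+0.0361, adjusted p = 0.00476), and SF3B1 of the U2 snRNP (+0.181, adjusted p = 0.0272). SR proteins had 8 members of 17 RI, with 0 of 8 called in GSK591 and 1 lower in MS023, and splicing kinases had 10 of 16, with 0 of 10 and 0 of 9 called. The direct comparison at 4 days called 4 of 8 SR members, 3 of 10 kinase members, and 4 of 7 spliceosome members, all higher in GSK591, against 40.1% of all RI. Export factors had 5 members with 0 of 4 and 0 of 3 called, RNA helicases 12 with 0 of 7 called by either inhibitor, and nonsense-mediated decay factors 2 with none called.

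The arginine methyltransferase list had 4 members, all in PRMT5, the target of GSK591. The longer of those in its last exon (chr14:23389941-23390196, minus strand, overlapped by a gene on the opposite strand) was at 0.959, 1, and 0.982 in 7-day DMSO, at 0.923, 0.951, and 0.961 in GSK591 (adjusted p = 0.0381), and at 0.935, 0.936, and 0.919 in MS023 (adjusted p = 0.00648). The DMSO and GSK591 ranges overlapped, and the other 3 members passed in neither comparison.

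Of the snoRNA host genes 29 of 63 RI were members, and GSK591 raised SNHG17 (+0.223, adjusted p = 0.00466) and lowered the GAS5 segment above and 1 of RPL3 (-0.141, adjusted p = 0.0391), with 0 of 22 called in MS023. Of DNA repair genes 16 of 33 were members and 3 of 15 rose in GSK591, near the 21.8% of all RI. These were the glycosylase NEIL1, the helicase ERCC3, and the endonuclease APEX1, with differences of +0.391, +0.281, and +0.0868 (adjusted p = 0.00249, 4.28e-04, and 2.63e-04). The NEIL1 intron had 7-day DMSO values of 0.270, 0.589, and 0.641. Of aminoacyl-tRNA synthetases 11 of 32 were members and 1 of 9 rose, the first intron of VARS2 (+0.268, adjusted p = 0.00156), which an exon of another gene overlaps on the same strand. In the list of transcription kinases and cyclins 9 of 17 were members, and of the 9 tested 2 rose and 2 fell in GSK591, all in CDK10 and CCNL2. The CCNL2 segment chr1:1326956-1328169 (minus strand) fell from 0.956, 0.930, and 0.903 to 0.829, 0.780, and 0.785 (adjusted p = 1.68e-04), and it overlaps the other CCNL2 members.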

How the data were processed

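The authors trimmed the reads with Trim Galore 0.6.5, aligned them to hg19 with STAR 2.4.2a, and compared inhibitor with DMSO libraries in rMATS. The 8 deposited tables have cells that join the whole-number counts of 3 libraries, not normalized, for the inclusion form (reads in the segment and across its borders) and the spliced form (junction reads), with effective lengths. The tables also hold the Ψ of each library (16 columns, which were recomputed here from the counts and not used) and the Ψ differences, p-values, and FDR of the authors' own test, which were not used. DMSO counts did not differ between tables (0 events).

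Both counts were first scaled by effective length (149 bases for the spliced form), and Ψ is the inclusion part of their sum. RI with at least 10 reads in every library of a comparison entered a logistic fit of the quasi-binomial kind. Dispersions were shrunk with squeezeVar (limma 3.58.1, R 4.3.3) and never let under 1. An F test followed, with Benjamini-Hochberg adjustment over all RI tested, and RI under an adjusted p of 0.05 were called. The fits were run on simulated counts with known changes. These were drawn only for well-covered RI with a Ψ away from both ends of its range, and so do not cover members close to 1. No pair of replicates was alike enough to be 1 library, with chi-square per degree of freedom between 1.88 and 4.85. The highest values, 4.85 and 4.25, were those of 2-day GSK591 library a with libraries c and b. Segments were placed with GENCODE genes on GRCh37. Counting intervals were not used, because replicates carry the error.

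Named are the 5 members with the most reads and the 5 with the highest Ψ, for the 7-day and direct comparisons up to 4 called members with the largest difference and at least 50 reads, up to 8 called alike on 3 days, 3 on each side of the threshold, members of the study's genes and of 12 gene lists, and the 2 genes with the most members. Some items that these rules name are not reported here. Members and lists were chosen with earlier results of these data known. Alternatives were other read minimums, thresholds, and length handling, limma on log2 odds (0.5 added to each count), and leaving out each library. The nascent RNA and actinomycin D experiments of the series were not analysed here.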

Additional observations from a re-analysis of the deposited data

Results flagged for a closer look

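For 6 members the difference between GSK591 and MS023 changed from 2 to 4 days beyond the spread between libraries, by the interaction term of the quasi-binomial model (adjusted p under 0.05 over all RI tested). They are named because they passed, and were chosen after their values were seen. The canonical intron of CDK5RAP3 went from +0.316 to +0.410, a change of 0.0934 (adjusted p = 0.00515). A segment within an exon of JUP, which encodes plakoglobin, went from +0.0960 to +0.206, a change of 0.110 (adjusted p = 0.00784), and 1 within an exon of CLU, which encodes clusterin, from +0.0226 to +0.0354, a change of 0.0128 (adjusted p = 0.0176). A segment inside a canonical intron of RPS9 went from +0.129 to -0.00215, a change of -0.131 (adjusted p = 0.0457). Among partly exonic segments MYL6 went from +0.0465 to -0.0235, a change of -0.0700 (adjusted p = 0.0197), and EEF1D from -0.244 to -0.348, a change of -0.104 (adjusted p = 0.047). MYL6 and CLU had at least 7496 and 8986 reads per library, so small differences passed there. Limma called 0 of the 6, and the count was 2 without GSK591 library a or c of 4 days or MS023 library c of 2 days and 3 without MS023 library a of 2 days.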

How the results depend on the processing

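Of 186 recomputed summary values 165 stayed alike and 21 moved, and of 437 recomputed values of named introns 418 kept their side of the threshold, 19 lost the call, and 0 changed direction. These values belong to 43 calls in the 7-day and direct comparisons. They cover introns named for a large difference, for calls alike on 3 days, or as members of the study's genes. Calls of introns named by other rules alone, such as the gene lists, and all co-treatment calls were not recomputed singly. The counts that moved with limma on the log2 odds were MS023 against DMSO at 7 days (0), co-treatment against GSK591 at 2 days (1) and 4 days (5), and the change from 2 to 4 days (0). Without 1 library these counts ranged from 56 to 67, from 5 to 27, from 35 to 47, and from 2 to 7. With no correction for effective length the median differences of MS023 from 4-day DMSO were -0.00248 at 2 days and -0.00278 at 4 days, and 2020 introns met the rule in place of 1604. Without 1 DMSO library of 4 days the median differences of co-treatment were 0.000652 to 0.00194 at 2 days and 0.000989 to 0.00224 at 4 days. Other rules kept 1493 to 1637 introns. The cause of these shifts was not tested. The minimum of 6 junction reads, chosen after seeing the data, left 191 calls for GSK591 at 7 days. No paired analysis was possible because the tables list libraries by position only. The planned edgeR alternative was not run, because the cells join several counts. Few junction reads limit every Ψ near 1.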
